A study of Mus musculus with 30 samples.

Results

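The data described here are 10 genes of the mesothelium, *Msln*, *Muc16*, *Upk3b*, *Upk1b*, *Lrrn4*, *Wt1*, *Bnc1*, *Krt8*, *Krt18* and *Krt19*, in the small bowel *muscularis externa* (*ME*) of mice after intestinal manipulation (IM). They were taken by gene symbol out of the 24601 genes of the total *ME* RNA table and by the symbol at the end of each transcript name in the *RiboTag* tables, and all 10 were present in both. The genes had been chosen for their fall after IM in these same libraries, so the values against naïve mice are a description and carry no test. In post-operative ileus, a motility disorder after abdominal surgery, the study compared naïve mice with mice at IM3h, IM24h and IM72h (hours after IM), where the bowel is rolled with moist cotton swabs after laparotomy. RNA was taken as total *ME* RNA, from 3 naïve, 3 IM3h, 4 IM24h and 4 IM72h libraries, and as *RiboTag* RNA, from 3 naïve libraries and 4 libraries at each time point. *RiboTag* RNA is mRNA precipitated with HA-tagged ribosomes (RPL22-HA) of cells that express Cre.

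Mice were males of 10 to 12 weeks per the study's methods. All *RiboTag* mice and the total RNA mice of IM24h and IM72h carried the inducible Cre of *B6 Tg(Sox10-icre/ERT2)388Wdr/J*, driven by the *Sox10* promoter of glial cells, crossed with *B6N.129 Rpl22tm1.1Psam/J*, and this Cre was induced with tamoxifen on 3 days. By the labels, the total RNA mice of the naïve and IM3h groups were instead *B6.Cg-Tg73.12Mvs/J(Gfap-cre)* crossed with the same *Rpl22* line. In total RNA, IM3h against naïve and IM72h against IM24h were therefore comparisons within a line, and in IM24h and IM72h against naïve the line and the time after IM cannot be told apart. *ME* libraries held 6603170 to 12866062 counts and *RiboTag* libraries 3010306 to 7899493. A single gene, *AY036118*, took 16.1% to 33.5% of the counts in naïve *ME* libraries, 24.1% to 25.1% at IM3h, 1.33% to 6.5% at IM24h and 2.34% to 3.69% at IM72h, and it took 58.0% to 80.1% in the *RiboTag* IM72h libraries, which kept only 663808 to 1619377 counts for all other genes. No replicate number links a library to a labelled animal, so library 1, 2 and so on follow the sorted library names of each group.

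The mesothelium is the single sheet of flat cells that covers the bowel and lines the abdominal cavity, and the serosal side of the *ME* carries it. Its cells keep features of an epithelium, such as keratin filaments and a coat of glycoproteins that lets the organs slide, beside features of connective tissue cells, and they arise from cells that use the transcription factor WT1.

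Of the 10 genes, 3 encode keratins that the intestinal epithelium also makes, and 7 are better restricted to mesothelium within the bowel wall. In naïve *ME* the 7 summed to 103 to 149 CPM, CPM being counts in each 1000000 of the library after TMM scaling between libraries. A list of 14 other mesothelial genes summed to 367 to 457 CPM there with 0 of the 14 at 0. Some of them, such as *Podxl* and *Calb2*, are also made by other cells, so that the sum is not of mesothelium alone. A list of 15 genes of the intestinal epithelium summed to 258 to 806 CPM in the same libraries, also with 0 of its genes at 0, so that the keratin counts come from a tissue that also holds epithelial RNA.

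In mm10 the genes lie on 8 chromosomes. Those that share one are *Wt1* (chr2:105126529-105173616, plus strand) and *Lrrn4* (chr2:132868305-132880891, minus strand), far from each other, and the neighbours *Krt8* (chr15:101996698-102004482, minus strand) and *Krt18* (chr15:102028180-102032027, plus strand), whose starts face away from each other across 23697 bases. *Msln* (chr17:25748613-25754378, minus strand) lies 282 bases from its relative *Mslnl*. *Upk3b* lies at chr5:136038496-136046487 on the plus strand. *Upk1b* (chr16:38773184-38800328), *Krt19* (chr11:100140810-100148665), *Bnc1* (chr7:81966672-81992292) and *Muc16* (chr9:18495455-18674530) lie on the minus strand. All 10 are protein-coding. The annotation places a gene of the opposite strand over part of *Krt8* (*Gm36026*), *Bnc1* (*4833418N17Rik*) and *Muc16* (*Gm25295*), and since the use of strand in counting is not given in the sources used here, reads of these pairs may not be told apart.

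RefSeq promoters (GRCm38.p6) were found for 6 of the 10 genes. Those of the pair that fell furthest in total RNA at IM3h, *Upk3b* and *Lrrn4*, are shown beside those of *Krt8* and *Krt18*, whose mean levels at IM3h stayed near the naïve ones. The means of these keratins come from IM3h libraries that lay both above and below all naïve ones. Each is the stretch before the gene's start, 5′ to 3′ on the gene's strand, and capitals mark GGAATG or its reverse complement, the core site of TEAD factors.
Upk3b, chr5:136038246-136038495, plus strand: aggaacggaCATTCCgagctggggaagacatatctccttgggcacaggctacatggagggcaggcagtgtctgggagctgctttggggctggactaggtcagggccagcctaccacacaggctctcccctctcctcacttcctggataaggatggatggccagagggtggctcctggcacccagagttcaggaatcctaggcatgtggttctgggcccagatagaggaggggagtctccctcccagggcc
Lrrn4, chr2:132880892-132881112, minus strand: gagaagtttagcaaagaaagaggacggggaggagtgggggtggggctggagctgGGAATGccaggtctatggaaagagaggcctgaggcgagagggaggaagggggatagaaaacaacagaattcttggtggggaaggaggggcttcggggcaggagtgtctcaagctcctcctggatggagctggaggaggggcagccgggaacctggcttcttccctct
Krt8, chr15:102004483-102004592, minus strand: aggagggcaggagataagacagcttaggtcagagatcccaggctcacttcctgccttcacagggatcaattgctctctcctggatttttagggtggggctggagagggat
Krt18, chr15:102027966-102028179, plus strand: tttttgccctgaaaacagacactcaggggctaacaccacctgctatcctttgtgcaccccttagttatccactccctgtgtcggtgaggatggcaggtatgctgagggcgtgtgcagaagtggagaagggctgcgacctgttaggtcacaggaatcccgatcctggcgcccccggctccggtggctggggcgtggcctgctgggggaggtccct

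Over the whole 250 bases before the RefSeq start, of which the stretches above are the part before both annotated starts, and on both strands, the TEAD core GGAATG was in 2 of the 6 promoters (*Upk3b* and *Lrrn4*) and in 12.6% of 32851 promoters. The GC box GGGCGG was in that of *Bnc1* alone and in 32.7% of all promoters. The WT1 site GCGTGGGAG and the AP-1 site TGANTCA were in 0 of the 6, beside 0.405% and 6.75% of all. *Muc16*, which also fell in total RNA at IM3h, had none of these sites. These are matches of letters and show no binding, and no link of a site to the levels was tested.

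At IM3h, 6 of the 7 better restricted mesothelial genes were below every naïve library in each of the 3 libraries of total *ME* RNA, *Bnc1* being the exception, while the 3 keratins scattered around their naïve levels. Summed, the 7 genes gave 103, 129 and 149 CPM in the naïve libraries and 2.95 to 15.9 CPM at IM3h. In bulk tissue, fewer mesothelial cells and less RNA per mesothelial cell cannot be told apart.

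*Msln* encodes mesothelin, a glycoprotein anchored to the surface of mesothelial cells. It was at 17.3, 24.7 and 19.5 CPM in the naïve libraries and at 4.08, 0.147 and 3.49 CPM at IM3h, a fitted log2 fold change of -2.93 ± 0.56 (SE). *Muc16*, the large membrane mucin that binds mesothelin and carries the CA125 epitope, was at 3.74, 6.02 and 6.16 CPM in naïve *ME* and at 1.27, 0 and 0.166 CPM at IM3h, a log2 fold change of -3.32 ± 0.77. For both, every IM3h library was below every naïve one. IM3h library 2, with 1 *Msln* count and 0 *Muc16* counts, was lowest for both. Without IM3h library 1 *Muc16* was left with 0 and 1 counts at IM3h, too few for a fold change.

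The uroplakins are membrane proteins of the bladder lining that mesothelial cells also make. *Upk3b* was at 40.0, 51.8 and 61.4 CPM in naïve *ME* and at 3.52, 0.442 and 4.81 CPM at IM3h, a log2 fold change of -4.09 ± 0.45. *Upk1b*, a tetraspanin, was at 10.5, 11.0 and 15.6 CPM and then at 2.39, 0.295 and 0.332 CPM, a log2 fold change of -3.50 ± 0.58. *Lrrn4*, a membrane protein with leucine-rich repeats, fell furthest of the tested members, from 24.4, 29.2 and 36.4 CPM to 3.10, 0.737 and 0.830 CPM, a log2 fold change of -4.17 ± 0.42 or 18-fold lower. The groups did not overlap for any of these genes. IM3h library 1 was the highest for *Lrrn4* and *Upk1b*. Without it the log2 fold change of *Lrrn4* was -5.20, and *Upk1b* was left with 2 counts in each of the other IM3h libraries, too few for a fold change.

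Of the transcription factors, *Wt1* was at 4.95, 5.59 and 8.10 CPM in naïve *ME* and at 0.985, 0.442 and 0.996 CPM at IM3h, a log2 fold change of -2.88 ± 0.45, again without overlap. *Bnc1*, basonuclin 1, a zinc finger protein of stratified epithelia and mesothelium, rested on 0 to 19 counts a library and did not pass the filter on low counts. Its values were 2.29, 0.430 and 2.06 CPM in naïve *ME* and 0.563, 0.884 and 0 CPM at IM3h, and these overlapped.

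The keratins are the filament proteins of simple epithelia, *Krt8* pairing with *Krt18*, and *Krt19* being the smallest of them. *Krt8* was at 74.7, 58.9 and 27.6 CPM in naïve *ME* and at 131, 46.7 and 16.8 CPM at IM3h, a log2 fold change of 0.34 ± 0.59. *Krt18* was at 9.42, 13.5 and 9.43 CPM and then at 19.7, 3.68 and 8.13 CPM, a log2 fold change of 0.04 ± 0.49. *Krt19* was at 38.9, 40.6 and 27.9 CPM and then at 49.9, 14.7 and 5.31 CPM, a log2 fold change of -0.54 ± 0.57. For each keratin, IM3h library 1 lay above all naïve libraries and another IM3h library below them. The sign for *Krt8* and *Krt18* turned with scaling to *Actb*, *Hsp90ab1* and *Rplp1*, to -0.05 and -0.34, and without IM3h library 1 the 3 values were -0.71 for *Krt8*, -0.83 for *Krt18* and -1.78 for *Krt19*.

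Of the 9 members tested at IM3h, 6 were called lower at an adjusted p under 0.05 in edgeR's quasi-likelihood test and 0 higher, while 13.4% of the 15333 genes tested were called lower and 19.3% higher. Every IM3h library was below every naïve one for 6 members, and for 24.8% of the genes tested. The median log2 fold change was -2.93 over the 9 members and 0.00 over all genes. Since the members were chosen on this contrast, these counts describe the choice. Leaving out each library in turn left 6 or 7 members called lower, *Krt19* being the seventh without IM3h library 1. With all *ME* groups in 1 fit, 5 were called lower, *Muc16* losing its call.

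**Figure D1:**
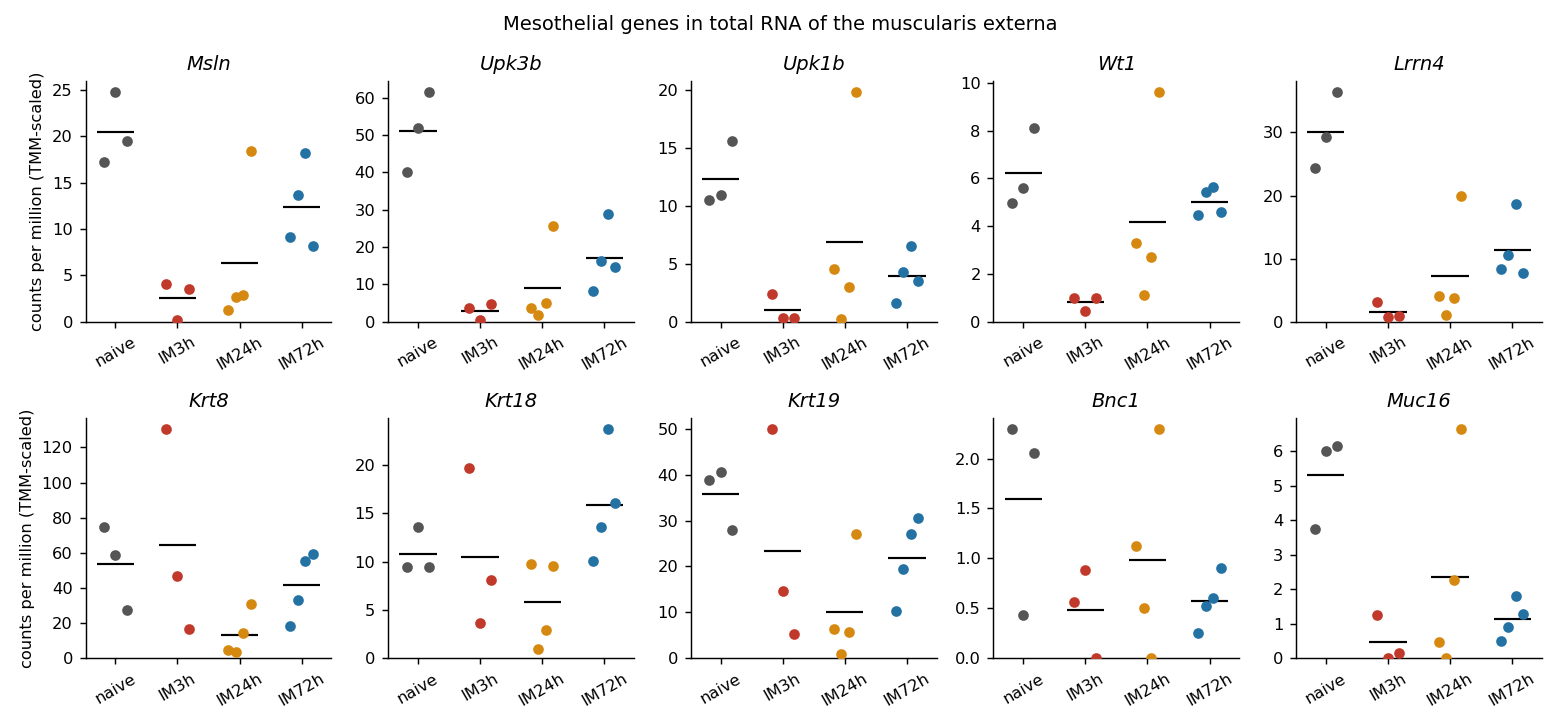
Level of each of the 10 genes in total *ME* RNA, in TMM-scaled CPM, for naïve mice (3 libraries) and IM3h (3), IM24h (4) and IM72h (4), with 1 point per library and a line at the group mean. For *Msln*, *Upk3b*, *Upk1b*, *Wt1*, *Lrrn4* and *Muc16* all IM3h points lie below all naïve points, and 1 of the 4 IM24h points stands far above the other 3.

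At IM24h all 10 members had lower means than in naïve *ME*, but the 4 libraries did not form 1 level. IM24h library 4 was the highest of its group for 9 of the 10 genes. Summed, the 7 better restricted genes gave 102 CPM in it and 18.3, 7.19 and 19.7 CPM in libraries 1, 2 and 3. *Upk3b* was at 3.67, 1.70, 5.09 and 25.7 CPM, against a naïve mean of 51.1 CPM, a log2 fold change of -2.51 ± 0.70. *Lrrn4* was at 4.04, 0.999, 3.73 and 19.9 CPM, a log2 fold change of -2.07 ± 0.71. Both stayed below all naïve libraries.

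*Msln* was at 1.22, 2.70, 2.91 and 18.4 CPM at IM24h, a log2 fold change of -1.70 ± 0.73, and library 4 was within the naïve range. *Upk1b* was at 4.51, 0.200, 3.0 and 19.8 CPM, with library 4 above every naïve library, and the log2 fold change was -0.85 ± 0.88. *Wt1* was at 3.29, 1.10, 2.73 and 9.62 CPM (log2 fold change -0.58 ± 0.63) and *Muc16* at 0.470, 0, 2.27 and 6.64 CPM (-1.18 ± 1.04), again with library 4 above the naïve range. *Bnc1* was at 1.13, 0.499, 0 and 2.29 CPM, a log2 fold change of -0.74 ± 1.09.

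The keratins were lower at IM24h than at IM3h by their means. *Krt8* was at 4.89, 3.69, 14.4 and 30.8 CPM, a log2 fold change of -2.0 ± 0.63 against naïve *ME*, and *Krt19* at 6.39, 0.899, 5.72 and 27.1 CPM, a log2 fold change of -1.84 ± 0.73. *Krt18* was at 9.78, 0.999, 2.91 and 9.51 CPM, a log2 fold change of -0.89 ± 0.62. Only *Krt19* of the 3 had every IM24h library below every naïve one.

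At IM24h 2 of the 10 members, *Upk3b* and *Krt8*, were called lower and 0 higher, beside 13.4% of 16328 genes called lower and 15.6% higher. Every IM24h library was below every naïve one for 3 members, and for 20.8% of the genes tested. Without IM24h library 4, 6 members were called lower and the log2 fold change was -3.87 for *Upk3b*, -3.35 for *Lrrn4* and -3.16 for *Msln*. Without naïve library 2, IM24h library 1 or IM24h library 3, 0 were, as with scaling to the 3 housekeeping genes. Scaled by the library total alone, which moved the median of all genes to 0.66, *Wt1* turned to 0.04 and the other 9 kept a lower level.

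IM24h library 4 also differed from the other 3 of its group in other tissue markers. Its 9 fibroblast genes summed to 4245 CPM against 1866 to 2636, its 6 smooth muscle genes to 7291 CPM against 1952 to 5695, and its 6 neutrophil genes to 46.2 CPM against 53.5 to 215. Its part in the members' levels was not tested beyond leaving the library out.

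At IM72h the means of the 7 better restricted genes lay between their IM3h and naïve means. *Upk3b* was at 8.14, 16.2, 28.8 and 14.7 CPM, a log2 fold change of -1.62 ± 0.32 against naïve *ME*, and *Lrrn4* at 8.39, 10.5, 18.6 and 7.66 CPM, a log2 fold change of -1.44 ± 0.28. *Upk1b* was at 1.59, 4.28, 6.56 and 3.50 CPM, a log2 fold change of -1.66 ± 0.36. *Muc16* was at 0.504, 0.902, 1.81 and 1.30 CPM, a log2 fold change of -2.23 ± 0.40 and the furthest below naïve at this time. For these 4 genes every IM72h library was below every naïve one, as for 27.7% of the genes tested.

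*Msln* had come closest to the naïve level among the cell surface genes, with 9.15, 13.7, 18.2 and 8.18 CPM and a log2 fold change of -0.76 ± 0.26, and its highest library reached the naïve range. *Wt1* was at 4.45, 5.41, 5.65 and 4.61 CPM, a narrow range that overlapped the naïve libraries, with a log2 fold change of -0.34 ± 0.24. *Bnc1* was at 0.252, 0.526, 0.603 and 0.909 CPM from 3 to 14 counts, a log2 fold change of -1.55 ± 0.55.

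The keratins overlapped the naïve libraries. *Krt8* was at 18.3, 33.1, 55.2 and 59.3 CPM (log2 fold change -0.40 ± 0.39) and *Krt19* at 10.2, 19.5, 27.1 and 30.5 CPM (-0.73 ± 0.30). *Krt18*, at 10.1, 13.5, 23.7 and 16.0 CPM, had a mean above naïve *ME*, with a log2 fold change of 0.55 ± 0.28. For *Krt19* 3 of the 4 IM72h libraries were below every naïve one, and it was called lower by DESeq2, with DESeq2's size factors and with scaling to the housekeeping genes.

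At IM72h 6 of the 10 members were called lower (*Msln*, *Upk3b*, *Upk1b*, *Lrrn4*, *Bnc1* and *Muc16*) and 0 higher, beside 28.3% of 16592 genes called lower and 29.3% higher. With all *ME* groups in 1 fit, 0 were called. With the library total alone the median of all genes was 0.62, *Krt8* and *Wt1* turned to 0.22 and 0.24 and *Krt18* rose to 1.16, and with scaling to the 3 housekeeping genes the median was -0.58 and *Krt18* turned to -0.03. The 6 called genes kept log2 fold changes below 0 under both scalings, but with the library total alone *Msln* (-0.14) and *Bnc1* (-0.99) were no longer called, and *Krt18* was called higher.

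Between IM24h and IM72h, within the *Sox10* line, 0 of 9 members tested were called in either direction by edgeR, beside 18.6% of 16281 genes called higher and 19.9% lower. DESeq2 called 1 higher, *Krt18*, and 2, *Krt8* and *Krt18*, had an unadjusted p under 0.05 with a change over 2-fold. Means rose for 7 members and were lower for *Upk1b*, *Muc16* and *Bnc1*. The log2 fold change was 0.94 ± 0.68 for *Msln*, 0.89 ± 0.69 for *Upk3b*, 0.63 ± 0.68 for *Lrrn4*, 1.60 ± 0.59 for *Krt8*, 1.42 ± 0.56 for *Krt18* and 1.10 ± 0.70 for *Krt19*. Only *Krt18* had every IM72h library above every IM24h one, beside 21.6% of the genes tested. Without IM24h library 4, 6 members were called higher (*Msln*, *Upk3b*, *Lrrn4* and the 3 keratins), with log2 fold changes of 1.76 to 2.41.

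**Figure D2:**
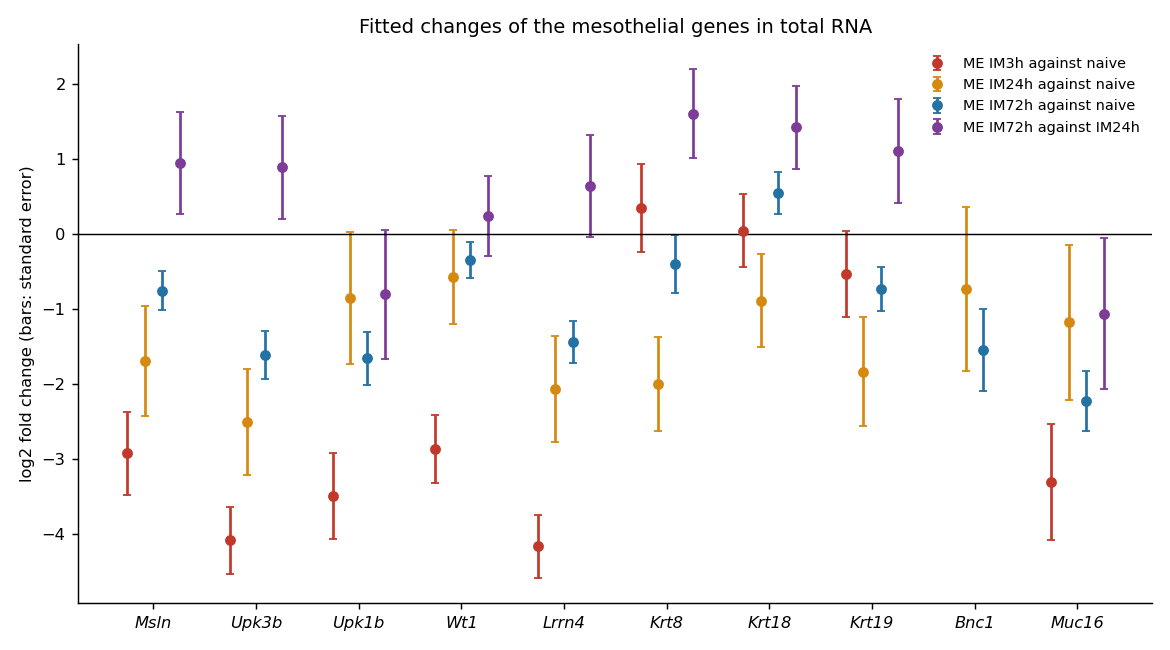
Fitted log2 fold change of each gene in total *ME* RNA with its standard error (bars), for IM3h, IM24h and IM72h against the same 3 naïve libraries and for IM72h against IM24h, where *Bnc1* has no value at IM3h and between IM72h and IM24h because it did not pass the filter. At IM3h 6 genes sit between -2.88 and -4.17 and the 3 keratins between -0.54 and 0.34.

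Set in order of their means in total RNA, 8 of the 10 genes were highest in naïve *ME*, *Krt8* being highest at IM3h and *Krt18* at IM72h. For *Msln*, *Upk3b*, *Wt1* and *Lrrn4* the order was naïve, IM72h, IM24h and IM3h. The naïve libraries were clear of the next group, IM72h, for *Upk3b* and *Lrrn4*, and IM24h was clear of IM3h for *Wt1*. All other neighbours in these 4 orders overlapped.

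The epithelial genes were compared library by library because the keratins are shared with that tissue. In the IM3h libraries the 15 epithelial genes summed to 2269, 918 and 481 CPM, in the same order as *Krt8* at 131, 46.7 and 16.8 CPM and *Krt19* at 49.9, 14.7 and 5.31 CPM. In the naïve libraries they summed to 806, 700.1 and 258 CPM, again in the order of *Krt8*. *Krt19* in the naïve libraries and *Krt18* in both the naïve and IM3h libraries did not follow this order. In the naïve and IM3h libraries the sum of the 7 other members had another order. At IM24h (149, 165, 315 and 337 CPM) and at IM72h (646, 1050, 1568 and 1122 CPM) the order of the epithelial sums differed from that of *Krt8* in 2 of the 4 libraries. Over all 14 total RNA libraries, which share groups and mouse lines, the mean log2 CPM of the epithelial genes had a Pearson r of 0.93 with *Krt8*, 0.74 with *Krt19* and 0.59 with *Krt18*, and of -0.09 to 0.18 with the 7 other members. Over the 15 *RiboTag* libraries r was 0.34 to 0.83 for all 10 members, and 0.52 for *Krt8*. In each *RiboTag* library of IM24h and IM72h 1 to 10 of the 10 members had 0 counts, so that these values rest partly on the floor.

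By the test, 1 of the 15 epithelial genes was called higher at IM3h (*Fabp1*, a fatty acid binding protein of enterocytes) and 0 lower. *Fabp1* was at 26.6 ± 3.36 CPM (SD, n = 3) against 10.8 ± 4.63 (n = 3), a log2 fold change of 1.37 ± 0.30 with an edgeR adjusted p of 0.00613. All 15 had a positive log2 fold change, with a median of 1.13. At IM24h 5 were called lower (*Epcam*, *Muc2*, *Tff3*, *Phgr1* and *Apoa1*) and 0 higher, with a median of -1.29, and at IM72h 5 were called higher and 1 lower, with a median of 0.13. From IM24h to IM72h 8 of the 15 were called higher and 0 lower, *Lgals4* from 30.4 ± 5.97 to 166 ± 37.4 CPM (SD, n = 4 each), with a log2 change of 2.42 ± 0.20 (adjusted p = 2.08e-05). Its part in the keratin values was not tested.

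**Figure D3:**
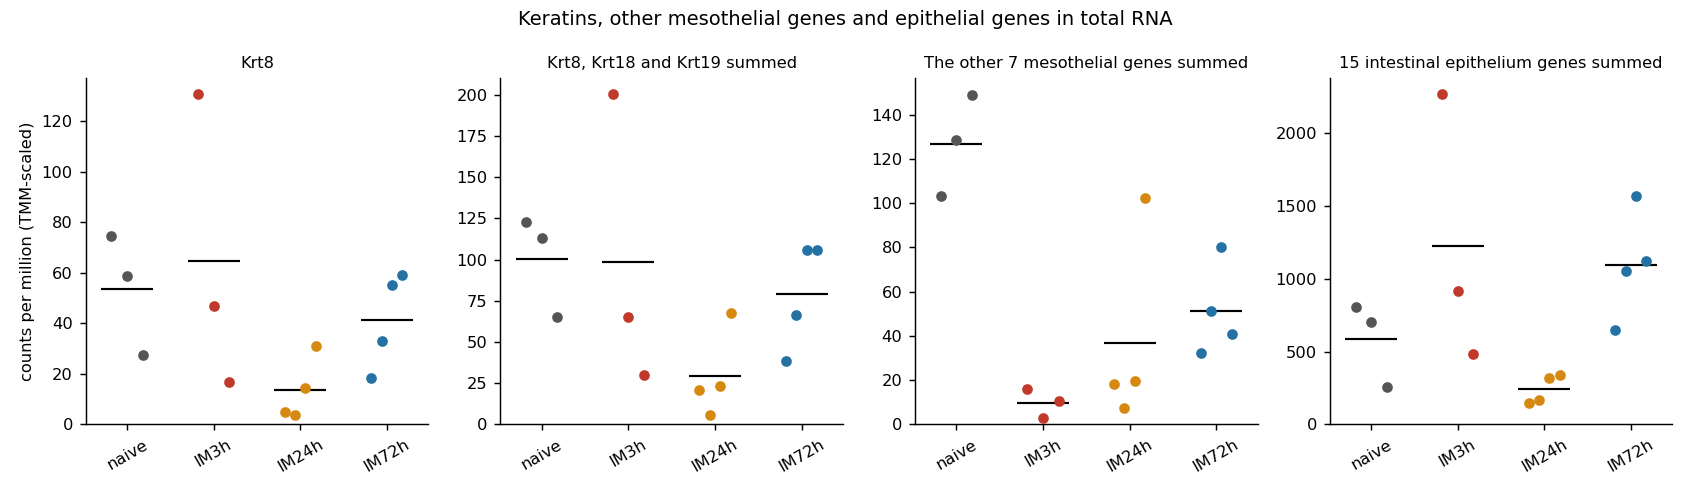
*Krt8*, the sum of the 3 keratins, the sum of the other 7 mesothelial genes and the sum of 15 intestinal epithelium genes in total *ME* RNA, in TMM-scaled CPM, with 1 point per library and a line at the group mean. The 7 genes reach at most 15.9 CPM at IM3h, where *Krt8* and the epithelial sum have their highest point in the same library.

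Of the 14 other mesothelial genes, all tested, 10 were called lower at IM3h and 0 higher (median log2 fold change -1.15). Like all lists here, this one was chosen with earlier results of these data known. Its calls and p-values are therefore a description and not independent support. *Gpm6a*, a neuronal membrane glycoprotein that mesothelium also makes, fell from 32.1 ± 7.34 to 1.64 ± 1.33 CPM (SD, n = 3 each), that is a log2 change of -4.22 ± 0.45 (edgeR adjusted p = 7.11e-05). *Rspo1*, a secreted enhancer of WNT signaling, fell from 19.9 ± 3.49 to 2.21 ± 0.962 CPM, a log2 fold change of -3.09 ± 0.31 (adjusted p = 5.54e-05). *Slpi*, a protease inhibitor, fell from 120.1 ± 37.2 to 10.4 ± 6.46 CPM (log2 fold change -3.47 ± 0.40, adjusted p = 0.000119) and *Nkain4*, which interacts with the sodium pump, from 11.8 ± 1.97 to 3.19 ± 0.901 CPM (-1.83 ± 0.30, adjusted p = 0.00117). The retinoic acid enzyme *Aldh1a2* and the keratin *Krt7* were also among the 10.

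At IM24h 5 of the 14 were called lower (*Nkain4*, *Rspo1*, *Cldn15*, *Calb2* and *Efemp1*) and 1 higher, *Podxl*, a sialomucin that endothelium also makes, from 8.30 ± 4.12 (n = 3) to 27.8 ± 8.65 CPM (SD, n = 4; log2 fold change 1.71 ± 0.38, adjusted p = 0.00732). Without IM24h library 4, 9 were called lower. At IM72h 7 were called lower and 3 higher (*Cldn15*, *Podxl* and *Ptgis*), with *Slpi* at 21.7 ± 6.01 CPM, a log2 fold change of -2.50 ± 0.24 (adjusted p = 1.04e-05), and *Rspo1* at 5.31 ± 1.40 CPM, a log2 fold change of -1.93 ± 0.22 (adjusted p = 3.27e-05). From IM24h to IM72h *Cldn15*, a tight junction claudin also of epithelium, and *Tm4sf5* were called higher and *Anxa8* lower.

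Relatives of the members were followed by family, and 7 of 14 were tested at IM3h. *Bnc2*, the paralog of *Bnc1* that fibroblasts also use, fell from 37.1 ± 2.30 to 22.1 ± 0.998 CPM (SD, n = 3 each), that is a log2 change of -0.69 ± 0.13 (edgeR adjusted p = 0.00293), and *Lrrn2* was the other of 2 called lower. At IM24h *Krt80* and *Muc1* were called higher and *Krt20*, a keratin of the gut epithelium, lower. At IM72h 4 of 8 were called higher, the keratins *Krt5*, *Krt14* and *Krt80* and the mucin *Muc1*, and 3 lower. *Krt5*, a keratin of basal epithelial cells, rose from 0.121 ± 0.121 (n = 3) to 4.46 ± 0.840 CPM (SD, n = 4; edgeR adjusted p = 2.34e-05). Its naïve level lay within the floor of 3 counts per library, so that no fold change is given.

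Mesothelial cells can take on features of fibroblasts, and 11 genes of this transition were all tested. At IM3h 3 were called higher (*Snai1*, *Vim* and *Tgfb1*) and 1 lower (*Acta2*). *Vim*, the intermediate filament of mesenchymal cells, rose from 365 ± 48.7 to 652 ± 34.1 CPM (SD, n = 3 each), that is a log2 change of 0.88 ± 0.12 (edgeR adjusted p = 0.000336). *Snai1*, a repressor of epithelial genes, rose from 3.42 ± 2.09 to 9.72 ± 0.620 CPM (log2 fold change 1.49 ± 0.40, adjusted p = 0.0184). At IM24h and at IM72h 6 were called higher, among them *Snai1*, *Vim*, *Fn1* and *Tgfbi*. Called lower were 2 at IM24h (*Cdh2* and *Acta2*) and 4 at IM72h (*Acta2* and the transcription factors *Snai2*, *Twist1* and *Zeb1*). *Vim* and *Fn1* are made by fibroblasts, muscle and leukocytes as well, so that these counts are of the whole *ME*.

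Markers of the other cells of the *ME* moved in the same libraries. At IM3h 6 of 8 fibroblast genes were called lower, with *Col3a1* from 428 ± 23.4 to 111 ± 8.54 CPM (SD, n = 3 each; log2 fold change -1.91 ± 0.11, edgeR adjusted p = 1.33e-06), and the list summed to 1425 to 1655 CPM against 2895 to 3049 in naïve *ME*. The 6 neutrophil genes in the table summed to 25.1 to 33.7 CPM at IM3h against 0.846 to 1.08 in naïve *ME*, and all 3 that were tested were called higher. Of the smooth muscle genes 1 of 6 was called lower at IM3h and 5 of 6 at IM24h. At IM3h 2 of 7 enteric glia genes were called higher and 2 lower, 1 of 7 macrophage genes higher and 2 lower, 1 of 6 endothelial genes higher and 3 of 7 cell cycle genes higher. At IM72h all 7 macrophage genes, all 8 cell cycle genes and 5 of 6 endothelial genes were called higher. Of 7 enteric glia genes 4 were called higher and 1 lower, of 9 fibroblast genes 4 higher and 2 lower, and of 6 smooth muscle genes 2 lower. The fibroblast list summed to 4480 to 5316 CPM at IM72h. The part of these shifts in the members' values was not tested.

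Over the 14 total RNA libraries, the 10 genes whose log2 CPM followed the members' mean most closely, of 14815 genes tested in all 3 comparisons with naïve *ME*, were *Gpm6a* (Pearson r = 0.96), *Adrb3* (0.94), *Coq9* (0.93), *Ptcd2* (0.93), *Sema3d* (0.92), *C2* (0.92), *Flrt2* (0.91), *Ptdss2* (0.91), *Vstm4* (0.90) and *Igfbp6* (0.90). These are descriptions over libraries that share their groups and mouse lines. *Adrb3*, the beta-3 adrenoceptor, had a mean of 48.5 CPM in naïve *ME*, 7.70 at IM3h, 13 at IM24h and 30.2 at IM72h. *Igfbp6*, a binding protein of insulin-like growth factor II, had means of 67.8, 7.58, 7.45 and 28.0 CPM. *Gpm6a* alone of the 10 stood on the list of other mesothelial genes.

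Among the members themselves, the 21 pairs without a keratin had a median r of 0.86 over these 14 libraries, from 0.25 to 0.94, and the 3 pairs of keratins a median of 0.81. The 21 pairs of a keratin with another member had a median of 0.48, from 0.14 to 0.68. The lowest of the pairs without a keratin include *Bnc1*, the gene with the fewest counts. Since the members were chosen for their fall in these same libraries, high values of r describe in part that choice. Over the 15 *RiboTag* libraries the keratins did not stand apart in this way, with a median r of 0.65 for pairs of a keratin with another member, 0.61 for pairs without a keratin and 0.46 for the 3 pairs of keratins. Members without counts in the IM24h and IM72h libraries enter these values too.

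In *RiboTag* RNA all 10 members were counted in naïve mice too. *Sox10* itself, the driver of the tag, was 54.1-fold higher in naïve *RiboTag* than in naïve total RNA (log2 fold change 5.76, edgeR adjusted p = 4.18e-05, higher in 3 of 3 libraries), and *S100b*, a glial calcium-binding protein, 18.7-fold. All *RiboTag* mice were of 1 line, and the comparisons of the 3 time points share the same 3 naïve libraries. *RiboTag* naïve library 1 was the highest of its group for 9 of the 10 members.

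At IM3h all 10 members had a lower mean in *RiboTag* RNA. *Lrrn4* was at 48.0, 33.4 and 30.4 CPM in the naïve libraries and at 1.62, 0.476, 2.78 and 0.0930 CPM at IM3h, a log2 fold change of -4.86 ± 0.72. *Upk3b* was at 44.6, 17.8 and 21.7 CPM and then at 2.08, 0, 5.68 and 4.10 CPM, a log2 fold change of -3.19 ± 0.86. *Upk1b* was at 1.90, 1.01 and 0.827 CPM and had 3 or fewer counts in each IM3h library, which puts it at least 4.36-fold lower against a floor of 3 counts per library. For all 3 the groups did not overlap.

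*Wt1* was at 59.9, 12.5 and 13.6 CPM in naïve *RiboTag* RNA and at 8.55, 1.43, 2.44 and 7.55 CPM at IM3h, a log2 fold change of -2.47 ± 0.69. *Muc16* was at 15.7, 7.20 and 2.48 CPM and then at 1.93, 0.952, 0.696 and 2.14 CPM, a log2 fold change of -2.50 ± 0.82. Neither overlapped, whereas *Msln*, at 85.3, 25.6 and 18.3 CPM and then at 8.32, 5.05, 10.3 and 56.3 CPM (log2 fold change -1.06 ± 0.75), did, through IM3h library 4. *Bnc1* was at 3.92, 1.35 and 0 CPM and then at 1.16, 0.667, 2.44 and 0 CPM, also with overlap.

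Of the keratins, *Krt19* was at 49.4, 27.0 and 26.3 CPM in naïve *RiboTag* RNA and at 5.39, 3.81, 3.36 and 4.94 CPM at IM3h, a log2 fold change of -2.91 ± 0.39 without overlap. *Krt8*, at 19.4, 16.6 and 36.1 CPM and then at 7.32, 5.62, 24.6 and 12.3 CPM (log2 fold change -0.89 ± 0.51), overlapped, as did *Krt18*, at 34.6, 4.61 and 4.37 CPM and then at 2.70, 1.71, 6.26 and 7.08 CPM (-1.66 ± 0.78). The 15 epithelial genes summed to 171 to 361 CPM in naïve *RiboTag* RNA and to 87.6 to 202 CPM at IM3h, where 3 of 13 tested were called lower and 0 higher. In the same libraries 4 of 9 fibroblast genes, 2 of 6 smooth muscle genes (*Actg2* and *Des*) and 2 of 7 enteric glia genes (*Sox10* and *Erbb3*) were called lower, and *Gfap* higher. The fibroblast genes summed to 1040 to 1321 CPM in naïve *RiboTag* RNA and to 400 to 600 CPM at IM3h, and the part of these shifts was not tested.

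Of 9 members tested in *RiboTag* RNA at IM3h, 4 were called lower (*Upk3b*, *Wt1*, *Lrrn4* and *Krt19*) and 0 higher, beside 4.44% of 16053 genes called lower and 8.86% higher. Every IM3h library was below every naïve one for 5 of these 9, and for 15.5% of the genes tested. Without naïve library 1, 2 members were called lower (*Lrrn4* and *Krt19*), without IM3h library 4, 6 were, and with all *RiboTag* groups in 1 fit, 0 were. Of 12 other mesothelial genes tested, 4 were called lower (*Gpm6a*, *Rspo1*, *Slpi* and *Ptgis*) and 0 higher. The number called lower was 1 without naïve library 1 and 0 with all groups in 1 fit. *Rspo1* went from 8.61 ± 2.98 (n = 3) to 0.238 ± 0.0608 CPM (SD, n = 4; edgeR adjusted p = 0.00242). Its IM3h mean lay below the floor of 3 counts per library, 0.286 CPM in this group, so that no fold change is given.

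At IM3h the log2 fold changes in total and in *RiboTag* RNA were -4.17 and -4.86 for *Lrrn4*, -4.09 and -3.19 for *Upk3b*, -2.88 and -2.47 for *Wt1* and -3.32 and -2.50 for *Muc16*. They were further apart for *Msln* (-2.93 and -1.06), *Krt19* (-0.54 and -2.91), *Krt18* (0.04 and -1.66) and *Krt8* (0.34 and -0.89). Without *RiboTag* naïve library 1 the *RiboTag* value was -0.08 for *Msln*, 0.05 for *Krt18* and -1.32 for *Wt1*, and without *RiboTag* IM3h library 4 it was -2.40 for *Msln*. Without total RNA IM3h library 1 the total RNA value was -0.71 for *Krt8*, -0.83 for *Krt18* and -1.78 for *Krt19*. Which genes were close and which far apart thus changed with single libraries of either fraction. The difference between fractions was not tested.

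At IM24h the *RiboTag* libraries differed widely among themselves. Library 3 had 0 counts for all 10 members and library 2 for 5, while *AY036118* took 22.2% to 59.2% of the counts in the 4 libraries. Library 1 was the highest for 7 members, with *Msln* at 56.5 CPM against 22, 0 and 1.52 in the others and *Upk3b* at 22.1 CPM against 0, 0 and 0.190. *Lrrn4* was at 3.76, 2.85, 0 and 4.0 CPM, every library below the naïve ones, with a log2 fold change of -3.72 ± 0.97. Of 8 members tested 0 were called by edgeR, beside 0.131% of 15304 genes called lower and 0.366% higher. Every IM24h library was below every naïve one for 3 members (*Lrrn4*, *Krt8* and *Krt19*), and for 15% of the genes tested. DESeq2 called 1 lower, *Lrrn4*, and 2, *Krt8* and *Lrrn4*, had an unadjusted p under 0.05 with a change over 2-fold. *Lrrn4* was also the call without library 3 and, in a fit chosen after seeing the data, without libraries 2 and 3, in which *AY036118* took 59.2% and 58.1%. *Upk3b* was the call without library 1. Of the 14 other mesothelial genes edgeR called 0, DESeq2 1 lower, and 3 were lower at an unadjusted p under 0.05 with a change over 2-fold. In the same comparison 3 of 6 smooth muscle genes (*Actg2*, *Des* and *Cnn1*) were called lower. The 7 enteric glia genes, 0 of them called, summed to 794 to 954 CPM against 1622 to 1951 in naïve *RiboTag* RNA. The part of these shifts was not tested.

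At IM72h few counts remained in the *RiboTag* libraries. *Upk3b*, *Upk1b*, *Krt18* and *Muc16* had 0 counts in all 4 libraries and *Krt19* had 1 count in 1 of them. Against a floor of 3 counts per library this puts *Krt19* at least 18.5-fold lower than naïve, *Upk3b* at least 15.1-fold, *Krt18* at least 7.84-fold and *Muc16* at least 4.57-fold, while for *Upk1b* the floor lies above the naïve level and gives no fold. Without naïve library 1 the bound was 2.43-fold for *Krt18* and 2.62-fold for *Muc16*. In contrast, *Lrrn4* had 119 counts in library 2 and 0 in the others, *Wt1* 14 counts in library 3 and at most 1 in the others, and *Krt8* 65, 1, 14 and 30 counts, or 30.6, 0.437, 13.3 and 18.2 CPM, which overlapped the naïve libraries.

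Of 8 members tested in *RiboTag* RNA at IM72h, 4 were called lower and 0 higher, beside 15.1% of 13572 genes called lower and 1.05% higher. Every IM72h library was below every naïve one for 5 of these 8, and for 28.1% of the genes tested. These calls were 0 without the filter on low counts, 0 without naïve library 2 or naïve library 3, and 2 without naïve library 1. Of 12 other mesothelial genes tested 4 were called lower (*Nkain4*, *Gpm6a*, *Rspo1* and *Slpi*), the first 3 of them with 0 counts in all 4 libraries, and this count was 1 without naïve library 1 or 2 and 0 without the filter. Only 6 of these 12 had a log2 fold change below 0. The median was -0.08 over the 12 and -0.40 over all genes. The 7 enteric glia genes summed to 183 to 1448 CPM in these libraries against 1622 to 1951 in naïve *RiboTag* RNA. The loss of counts from all genes other than *AY036118* and the members' low values came in the same 4 libraries, and its part was not tested.

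**Figure D4:**
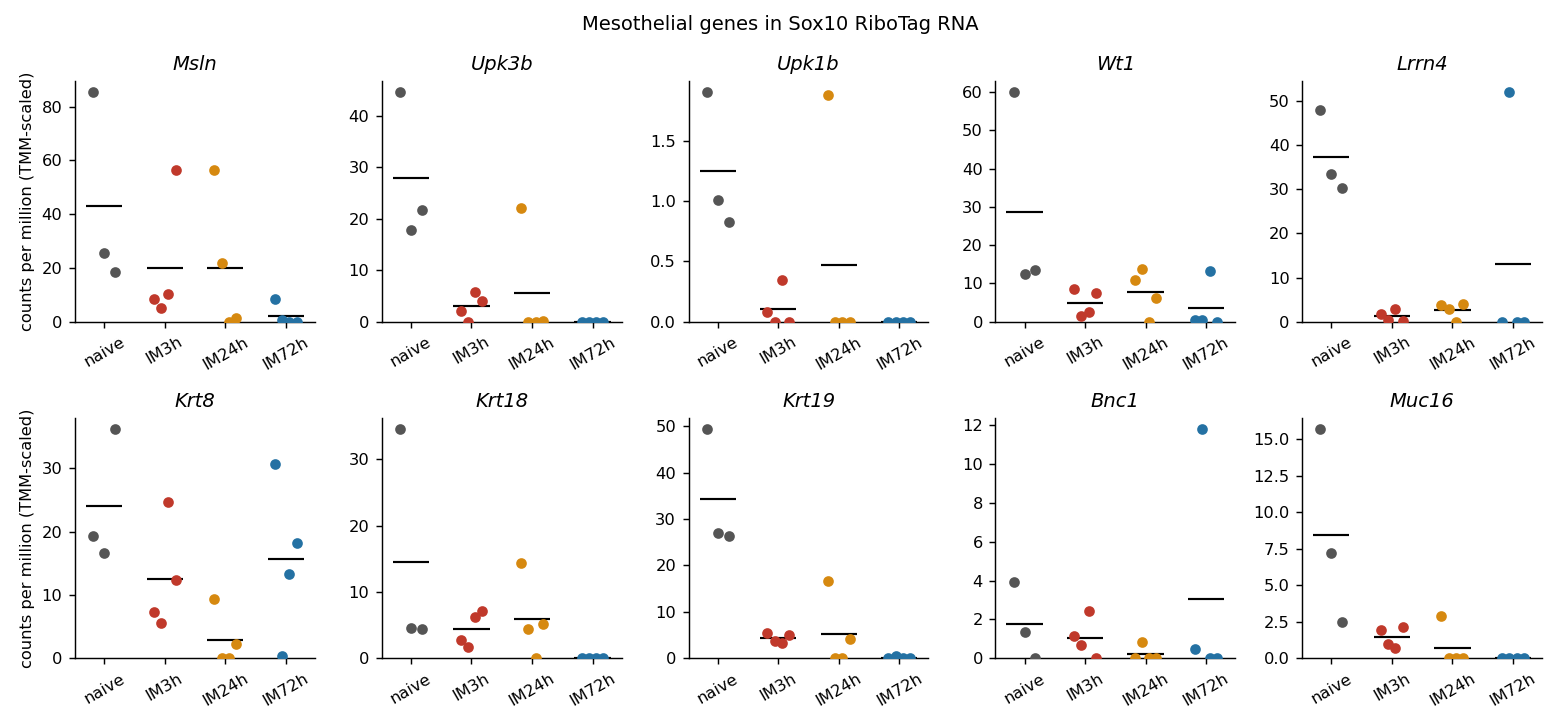
Level of each of the 10 genes in *Sox10* *RiboTag* RNA, in TMM-scaled CPM, for naïve mice (3 libraries) and 4 libraries at each time after IM, with 1 point per library and a line at the group mean. For *Upk3b*, *Upk1b*, *Wt1*, *Lrrn4*, *Krt19* and *Muc16* all IM3h points lie below all naïve points, and at IM24h and IM72h single libraries such as *Lrrn4* at 52.0 CPM stand above others at 0.

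The naïve *RiboTag* and total RNA libraries were also compared with each other. The genes were not chosen on this contrast, but these same libraries entered the contrasts with IM on which they were chosen. The calls and p-values of members given here are therefore a description and not an independent test. On a joint scale of both sets of 3 naïve libraries, *Wt1* was at 78.4, 16.3 and 17.7 CPM in *RiboTag* RNA and at 5.34, 5.83 and 8.81 CPM in total RNA, so that the groups did not overlap. It was higher in *RiboTag* RNA with a log2 fold change of 2.56 ± 0.63 (edgeR adjusted p = 0.0168). Without *RiboTag* naïve library 1, the highest, its log2 fold change was 1.38 and it was still called higher. *Upk1b* was at 2.49, 1.32 and 1.07 CPM in *RiboTag* RNA and at 11.3, 11.4 and 17 CPM in total RNA, lower in all 3 libraries, with a log2 fold change of -2.94 ± 0.52 (adjusted p = 0.00414).

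The other 8 members did not pass the test. *Msln* was at 112, 33.4 and 23.8 CPM in *RiboTag* RNA and at 18.6, 25.8 and 21.2 CPM in total RNA, a log2 fold change of 1.45 ± 0.53 (adjusted p = 0.0728), and *Lrrn4* at 62.8, 43.5 and 39.5 CPM against 26.3, 30.5 and 39.6 CPM (0.67 ± 0.25, adjusted p = 0.0824). *Krt8* (-0.80 ± 0.40, adjusted p = 0.173) and *Upk3b* (-0.50 ± 0.35, adjusted p = 0.321) had log2 fold changes below 0. Those of *Muc16* (1.04 ± 0.64), *Krt18* (0.80 ± 0.75), *Bnc1* (0.47 ± 1.22) and *Krt19* (0.30 ± 0.29) were above 0. Without *RiboTag* naïve library 1 those of *Krt18* (-0.94), *Bnc1* (-0.94) and *Krt19* (-0.10) turned, *Muc16* was at 0.19, *Msln* at 0.43, and *Upk3b* was called lower.

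Thus 1 member was called higher and 1 lower of 10 tested, beside 13.4% of 14769 genes called higher and 12.7% called lower. The median log2 fold change was 0.57 over the members and -0.01 over all genes. Scaled by the library total alone, the median of all genes was 0.73, 4 members were called higher, as were 5182 of the 14769 genes, and *Upk3b* turned to 0.19. Without total RNA naïve library 1 or 2, *Wt1* was no longer called. *RiboTag* and total RNA naïve mice differ in their Cre line by the labels, so fraction and line cannot be told apart here.

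The lists give a scale for these values. In naïve *RiboTag* RNA all 7 enteric glia genes were called higher (median log2 fold change 3.42). Of the smooth muscle genes 5 of 6 were called lower (median -1.10), of the fibroblast genes 5 of 8 (median -1.14) and of the epithelial genes 2 of 13 (median -1.22), with 0 higher in each. Of the 14 other mesothelial genes 3 were called higher (*Nkain4*, *Ildr2* and *Calb2*) and 2 lower (*Aldh1a2* and *Efemp1*), with a median of -0.11. *Nkain4* was higher by 2.05 ± 0.34 (adjusted p = 0.0032) and *Calb2*, a calcium-binding protein also of enteric neurons, by 1.41 ± 0.27 (adjusted p = 0.00597) on the log2 scale, whereas *Aldh1a2* fell by 1.72 ± 0.34 (adjusted p = 0.00707). No test compared the lists.

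**Figure D5:**
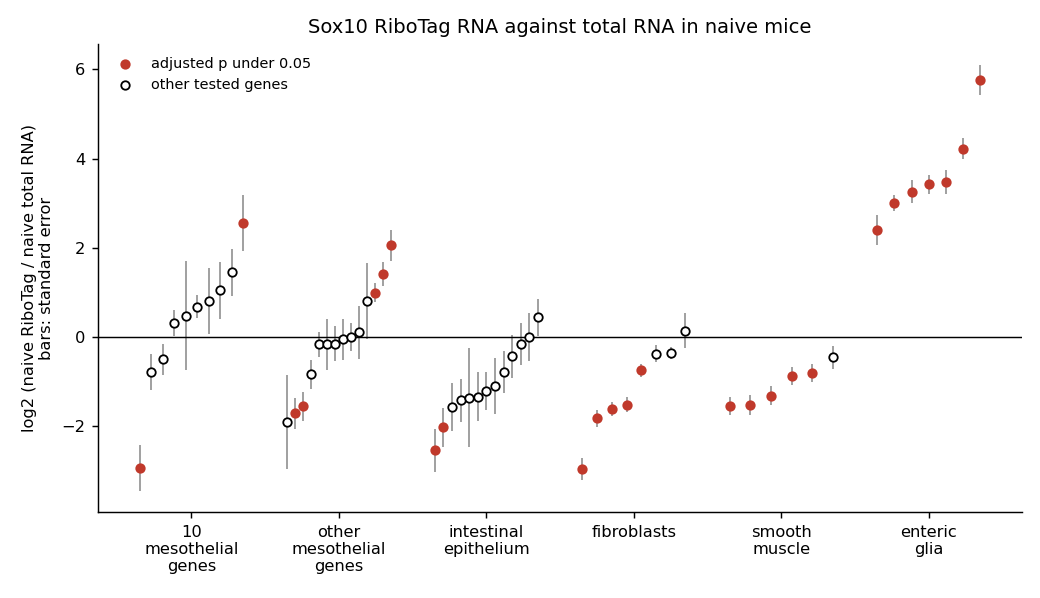
Log2 fold change of naïve *RiboTag* RNA against naïve total *ME* RNA (3 libraries each) for the 10 mesothelial genes and 5 other lists, with 1 point per tested gene in rising order, standard errors as bars, and filled points for an adjusted p under 0.05. All 7 enteric glia genes lie above 0 and are filled, 5 of 6 smooth muscle genes are filled below 0, and the 10 mesothelial genes run from -2.94 (*Upk1b*) to 2.56 (*Wt1*).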

How the data were processed

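QuantSeq 3′ libraries were sequenced single-end (50 bp) by the authors, trimmed, aligned with STAR to mm10 and quantified against Ensembl transcripts in Partek Flow. The values used are estimated counts per gene (total RNA) or per transcript (*RiboTag*), as deposited, not scaled for library size. Transcripts were summed to genes by symbol, and counts were rounded. The authors' own comparisons (fold changes, p-values, group means) were not used. The deposited tables hold the same 3 naïve *RiboTag* libraries in each *RiboTag* table, where the labels list 4. Libraries were grouped by the group entry of their line.

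Each comparison was fitted on its own 2 groups in edgeR 4.0.16 (R 4.3.3) with filterByExpr, TMM scaling and the two-sided quasi-likelihood test, and a call is a Benjamini-Hochberg adjusted p under 0.05 over all genes tested. Standard errors are those of the fitted log2 values. Levels are CPM after TMM over all libraries of a fraction, and correlations were taken on log2 CPM (prior count 2). As tags come from the 3′ end, levels were not divided by length, and levels of different genes were not ranked. A group with at most 3 counts in each library was set at that floor, which covers counting error only. Since nothing says which animal each library came from, p-values measure the spread between these libraries. The fits were tested on simulated data. Alternatives were DESeq2 1.42.0 and its size factors, library totals, housekeeping genes, no filter, the study's threshold, 1 fit over all groups, *AY036118* left out, the transcript table of total RNA and each library left out.

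The 10 genes and all lists were chosen with earlier results of these data known. Of the lists, at most 4 genes per comparison are named with values, those with the smallest adjusted p among the calls, and 1 gene is not reported here. Coordinates are from GENCODE M21 (mm10), promoters from RefSeq. Promoters of *Msln*, *Upk1b*, *Wt1* and *Krt19* were not used here.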

Additional observations from a re-analysis of the deposited data

Results flagged for a closer look

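Of 46 sets of 4 libraries, 1 per gene and group, 13 held a library whose gap to the nearest other, as a share of the range, passed Dixon's 95% value of 0.829. For normally distributed values chance alone flags about 1 in 20 such sets, which does not hold for counts near 0, and the sets share libraries. In 5 of the 13 the other 3 libraries were at 0, so that any count in the fourth passes, down to 1 count for *Krt19* at IM72h and 2 counts for *Bnc1* at IM24h in *RiboTag* RNA.

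In total *ME* RNA at IM24h, library 4 stood above the rest for *Msln* (18.4 CPM against 1.22 to 2.91), *Upk3b* (25.7 against 1.70 to 5.09) and *Lrrn4* (19.9 against 0.999 to 4.04). In *RiboTag* RNA at IM3h, *Msln* was at 56.3 CPM in library 4 and at 5.05 to 10.3 in the others.

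In *RiboTag* RNA at IM24h, library 1 stood apart for *Upk3b* (22.1 CPM against 0 to 0.190), *Upk1b* (1.88 against 0) and *Muc16* (2.88 against 0), and library 2 for *Bnc1* (0.814 against 0). In *RiboTag* RNA at IM72h, *Msln* was at 8.48 CPM in library 1 against 0 to 0.437 and *Wt1* at 13.3 CPM in library 3 against 0 to 0.471. Library 2 of that group stood apart for *Lrrn4* (52.0 CPM against 0), *Bnc1* (11.8 against 0 to 0.471) and *Krt19* (0.437 against 0).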

How the results depend on the processing

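By their titles the total RNA samples are inputs and the *RiboTag* samples immunoprecipitates. Whether they share animals cannot be told, and the labels give the naïve and IM3h groups of the fractions different Cre lines. No paired analysis was possible because the library names in the count tables carry no replicate numbers. Of 1199 member values under other settings, 1132 moved by less than the spread between libraries, 67 moved by more and 0 reversed a call. Where a count moved, the cause was not tested beyond the construction of the setting. Few counts limit *Bnc1*, *Upk1b* and *Muc16*, and all members in *RiboTag* RNA at IM72h.

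By the study's threshold (unadjusted p under 0.05 and over 2-fold) the genes called were 2834 at IM3h and 5439 at IM72h in *ME*, 4108 for IM72h against IM24h, and 3325 at IM3h and 1908 at IM24h in *RiboTag* RNA. Members called lower were then 5 (*ME* IM24h) and 2 (*RiboTag* IM24h), members higher 2 (IM72h against IM24h) and 2 (naïve fractions), and other mesothelial genes lower 4 (*ME* IM72h), 3 (*RiboTag* IM24h) and 2 (IM72h against IM24h). Scaled to the housekeeping genes, the genes called were 2617 (*ME* IM24h), 548 (*RiboTag* IM3h), 1 (*RiboTag* IM24h), 4109 (IM72h against IM24h) and 2436 (naïve fractions), with 0 members and 2 other mesothelial genes lower at *ME* IM24h and 0 of the latter in the fractions. With the library total alone, 1 member and 1 other mesothelial gene were lower at *ME* IM24h, 1 member higher and 3 other mesothelial genes lower at *ME* IM72h, 1 gene called at *RiboTag* IM24h, and 4 members higher and 0 other mesothelial genes lower between fractions. With all groups in 1 fit, 0 members were lower at *ME* IM72h, 34 genes, 0 members and 0 other mesothelial genes were called at *RiboTag* IM3h, 47 genes at *RiboTag* IM24h and 1258 at *RiboTag* IM72h, and for IM72h against IM24h 2 members were higher and 2 other mesothelial genes lower. With no filter, 238 genes were called at *RiboTag* IM24h, 34 genes, 0 members and 0 other mesothelial genes at *RiboTag* IM72h, and 1 member higher for IM72h against IM24h. DESeq2 called 907 genes, 1 member and 1 other mesothelial gene at *RiboTag* IM24h, 1 member higher for IM72h against IM24h and 2 between fractions. Without the 2 *RiboTag* IM24h libraries richest in *AY036118*, chosen after seeing the data, 153 genes and 1 member were called.

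Calls higher and lower were 2962 and 2058 at *ME* IM3h, 1741 and 3391 by library total and 1578 and 5363 by housekeeping genes. They were 2553 and 2187 at *ME* IM24h (6281 and 720, 756 and 1861), 4855 and 4689 at *ME* IM72h (8509 and 1964, 2013 and 7981), and 1985 and 1877 between fractions (5182 and 458, 1564 and 872). At *RiboTag* IM3h they were 1422 and 712 (976 and 931, 242 and 306), and for IM72h against IM24h 3024 and 3248 (1245 and 2864 by housekeeping genes).

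Leaving out each library in turn gave 3750 to 4510 genes called at *ME* IM3h (5020 with all), with 6 to 7 members and 10 to 11 other mesothelial genes lower. At *ME* IM24h it gave 2790 to 5972 (4740), 0 to 6 and 2 to 9, and at *ME* IM72h 8456 to 9634 (9544), 4 to 6 and 7, with 0 to 1 members higher. In *RiboTag* RNA it gave 1100 to 2849 (2134), 2 to 6 and 1 to 5 at IM3h, 0 to 483 (76), 0 to 1 and 0 to 1 at IM24h, and 1288 to 3831 (2191), 0 to 5 and 1 to 6 at IM72h. For IM72h against IM24h it gave 4874 to 7166 (6272), 0 to 6 members higher and 1 to 3 other mesothelial genes lower. Between fractions it gave 1925 to 4727 (3862), 1 to 2 members lower, 0 to 2 higher and 2 to 3 other mesothelial genes lower.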
